A study of Mus musculus with 2 samples.

Results

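The mitochondrial calcium uniporter and the voltage-dependent anion channels (VDAC) carry calcium and metabolites into mitochondria, and 9 of their genes were followed among 55536 annotated genes in heart RNA. The 9 genes were Mcu, Mcub, Micu2, Micu3, Smdt1, Letm1, Vdac1, Vdac2 and Vdac3, matched by exact gene symbol. They were chosen with earlier results of these data known. All 9 were found, each with 1 gene identifier. Other subunits of the channel were not analysed here. The tissue was heart of male B6CASTF1/J mice of 18 to 20 months, the F1 cross of C57BL/6J and CAST/EiJ, with 300 ng of RNA and ERCC spike-ins per library. Both libraries, biological replicates 1 and 2, belong to this single group with no treatment listed, so there are no conditions to compare. They carry separate biosample identifiers and 1 shared donor identifier, and any spread between them may be technical in part.

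Calcium crosses the outer mitochondrial membrane through VDAC pores, which also pass ATP, ADP and metabolites. It then enters the matrix through the uniporter, a pore built of MCU subunits. MCUB is a paralog of MCU that joins the pore and lowers its conductance. MICU2 and MICU3 are calcium-sensing gatekeepers in the space between the membranes, and the small membrane protein EMRE, product of Smdt1, couples them to the pore. LETM1 is an inner membrane protein of cation and proton exchange. In heart muscle, matrix calcium stimulates dehydrogenases that feed the respiratory chain, which ties energy supply to the beat.

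Replicate 1 had a total of 39053830 expected counts, and replicate 2 had 37447840. Levels are given in TPM, the length-scaled transcript abundance that sums to the same total in each library, with mean ± SD of the 2 libraries (n = 2). All 6 cardiac myocyte markers were present, with a summed level of 32597 TPM in replicate 1 and 26831 in replicate 2. Markers of endothelium, fibroblasts, macrophages and smooth muscle with pericytes were present in 4 of 4 genes for each list, at summed levels between 30.5 and 195 TPM. In a bulk tissue, fewer cells of a type and less RNA per cell cannot be told apart. The RNA of the mitochondrial chromosome made up 29.3% of annotated counts in replicate 1 and 34.4% in replicate 2. Nuclear protein-coding genes held 41.4% and 35.8% of all TPM, and this difference moves the TPM of every nuclear gene.

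Vdac1 was the most abundant member, and the sequences of its 2 coding transcripts are shown because their annotated starts of translation differ. Vdac1 (ENSMUSG00000020402.11) lies on chromosome 11 from 52360860 to 52389397 on the plus strand (mm10, GENCODE M21). Vdac1-202 starts in an upstream non-coding exon and is joined to the coding exon, while Vdac1-201 is annotated to start 36 bases before that exon, with an in-frame start codon of its own. Both are given 5′ to 3′ from the GENCODE M21 transcripts, with the annotated start codon of each in capitals. The second ATG in capitals in Vdac1-201 is the annotated start codon of Vdac1-202 and lies inside the reading frame of Vdac1-201.
Vdac1-202: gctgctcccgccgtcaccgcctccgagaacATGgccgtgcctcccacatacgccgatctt
Vdac1-201: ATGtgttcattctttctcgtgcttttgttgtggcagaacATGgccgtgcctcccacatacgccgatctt
From the second ATG in capitals of Vdac1-201 on, the shown sequences are identical, and Vdac1-201 has 888 coding bases against 849 in Vdac1-202.

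The promoters of Vdac1, Mcu and Mcub are shown, as those of the highest member, the pore gene and its low paralog, from RefSeq on GRCm38.p6. Each is the stretch of 250 bases before the start site on the gene's strand, with matches to the searched motifs in capitals.
Vdac1, chr11:52360601-52360850 on the plus strand: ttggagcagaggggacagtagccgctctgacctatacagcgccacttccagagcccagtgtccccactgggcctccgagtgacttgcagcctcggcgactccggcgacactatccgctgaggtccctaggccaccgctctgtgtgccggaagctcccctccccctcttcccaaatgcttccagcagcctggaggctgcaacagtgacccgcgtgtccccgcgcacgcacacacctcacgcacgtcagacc
Mcu, chr10:59616693-59616942 on the minus strand: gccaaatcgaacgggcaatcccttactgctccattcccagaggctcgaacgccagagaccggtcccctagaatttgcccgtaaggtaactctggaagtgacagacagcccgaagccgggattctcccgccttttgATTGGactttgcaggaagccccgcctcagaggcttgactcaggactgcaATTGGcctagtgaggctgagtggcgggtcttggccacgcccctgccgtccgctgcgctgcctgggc
Mcub, chr3:129970207-129970456 on the minus strand: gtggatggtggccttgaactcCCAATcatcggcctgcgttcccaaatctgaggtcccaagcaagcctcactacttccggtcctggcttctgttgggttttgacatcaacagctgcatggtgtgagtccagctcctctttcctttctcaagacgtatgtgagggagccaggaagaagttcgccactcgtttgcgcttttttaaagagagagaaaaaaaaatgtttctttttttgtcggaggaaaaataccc
The motifs searched on both strands of 300 bases (250 before and 50 after the start) were the CCAAT box CCAAT, the GC box GGGCGG, the NRF1 core TGCGCA, the ERR site AAGGTCA and the TATA box TATAAA, none of which contains another. They occur in 37.4%, 35.7%, 7.76%, 4.72% and 13.6% of 32851 RefSeq promoters of that length. Mcu had 2 CCAAT boxes, starting at positions -115 and -66 from the start site, Mcub had 1 at -229, and the upstream Vdac1 promoter had no match to any of the 5 motifs. The upstream Vdac1 promoter held 24 CpG pairs, Mcu 21 and Mcub 11, against a median of 7 over all promoters. Fewer pairs were held by 80.0%, 75.2% and 58.6% of all promoters, in that order. RefSeq had promoters for 6 of the 9 members and none was matched for Micu3, Vdac2 and Vdac3. It lists a second Vdac1 start at position 52361597, for which no Vdac1 transcript starts in the tables, with 3 GC boxes and 1 ERR site.

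The 9 genes spanned a 518-fold range, from the VDAC genes at the top to Mcub at the bottom, in the same order in both libraries. The VDAC genes were far above the uniporter subunits, and the pore gene Mcu was lower than Smdt1, Letm1 and Micu2. Of the 8 neighbouring pairs in this order, 7 had ranges that did not overlap between the genes. Vdac2 and Vdac3 were the exception. With 2 values a gene no permutation test can reach a p of 0.05, so the order is given as a description.

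**Figure D1:**
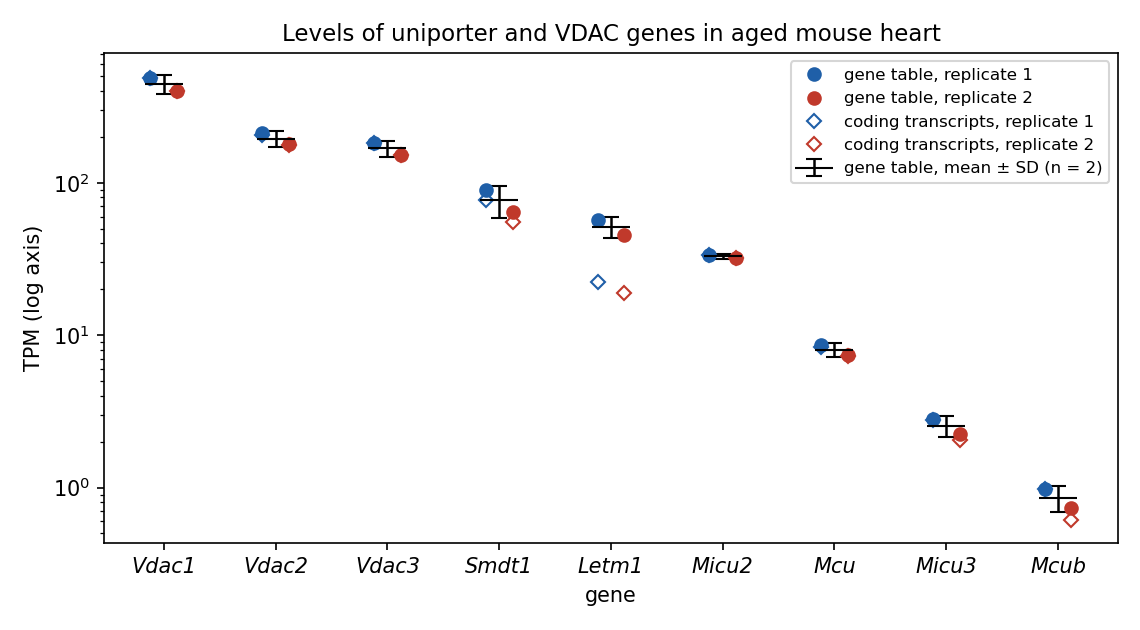
Level of each of the 9 genes in TPM (log axis). Filled points give the gene table in replicate 1 (blue) and replicate 2 (red), black bars the mean ± SD of the 2 libraries, and open diamonds the sum over coding transcripts alone. Levels fall from 489 and 402 TPM for Vdac1 to 0.98 and 0.74 for Mcub, and the diamonds of Letm1 lie at 22.5 and 18.8.

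Among the outer membrane pores, Vdac1 was at 489 TPM in replicate 1 and 402 in replicate 2, or 445 ± 61.6. It is the main VDAC gene of most tissues, and here ranked 117 among 22015 nuclear protein-coding genes. Vdac2 (ENSMUSG00000021771.14, chromosome 14 from 21825238 to 21845879, plus strand), whose protein restrains the cell death factor BAK, was at 211 and 179 TPM, or 195 ± 22.7. Vdac3 (ENSMUSG00000008892.12, chromosome 8 from 22577075 to 22593813, minus strand), which encodes the third pore isoform, was at 182 and 153 TPM, or 168 ± 20.9. Vdac2 was above Vdac3 within each library, but its value in replicate 2 was below that of Vdac3 in replicate 1, so their ranges overlapped.

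The split of the 3 pores was nearly equal in the 2 libraries. Vdac1 made up 55.4% of their summed TPM in replicate 1 and 54.8% in replicate 2, or 55.1% ± 0.45. Vdac2 made up 24.2% ± 0.333 and Vdac3 20.8% ± 0.117. In the second table the means were 55.1%, 25.6% and 19.4%, so the order of the shares was the same there. The summed VDAC level was 882 TPM in replicate 1 and 733 in replicate 2, which is 0.213% and 0.205% of nuclear protein-coding TPM. It exceeded Mcu by 103-fold and 98.6-fold.

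The pore gene Mcu (ENSMUSG00000009647.13, chromosome 10 from 59446984 to 59616692, minus strand) was at 8.6 TPM in replicate 1 and 7.44 in replicate 2, or 8.02 ± 0.82. These values rest on 729 and 622 expected counts, and Mcu ranked 5692. When TPM was rescaled to nuclear protein-coding genes, the libraries were nearly level, at 20.8 in both.

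Its paralog Mcub (ENSMUSG00000027994.14, chromosome 3 from 129914960 to 129970206, minus strand) was the lowest member, at 0.98 and 0.74 TPM, or 0.86 ± 0.17. Only 36 and 21 expected counts stood behind it. The deposited posterior bounds on its TPM, whose level is not stated, ran from 0.980 to 2.49 in replicate 1 and from 0.618 to 1.90 in replicate 2. The estimate of replicate 1 lies at its lower bound. The printed TPM need not lie within such bounds, since that of Vdac1 lay above them in both libraries (470.9 to 486.9 in replicate 1 and 385.9 to 400.2 in replicate 2). The Mcub level per Mcu was 0.114 in replicate 1 and 0.0995 in replicate 2, or 0.107 ± 0.0102. In counts, which are not per length, Mcub made up 4.71% of Mcu plus Mcub (95% Clopper-Pearson interval 3.32 to 6.46) in replicate 1 and 3.27% (2.03 to 4.95) in replicate 2. In the second table the 2 libraries were further apart, with 0.198 and 0.0811 Mcub per Mcu. Macrophage markers, measured because Mcub is also expressed outside muscle, had a summed level of 45 TPM in replicate 1 and 30.5 in replicate 2 with none of 4 at 0. Their part in the Mcub level was not tested.

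The gatekeeper gene Micu2 (ENSMUSG00000021973.9, chromosome 14 from 57916261 to 57999262, minus strand) was at 33.7 and 32.1 TPM, or 32.9 ± 1.1, which ranked 1749. In TPM it had the smallest relative spread of the 9 genes. Its TPM in replicate 2 was 0.954 of that in replicate 1. Rescaled to nuclear protein-coding genes, Micu2 was at 81.2 in replicate 1 and 89.6 in replicate 2, while Mcu was nearly level. Its place in the order of spread therefore depended on the scaling. Micu3 (ENSMUSG00000039478.15, chromosome 8 from 40307458 to 40386308, plus strand), a gatekeeper best known from nervous tissue, was at 2.83 and 2.26 TPM, or 2.55 ± 0.403, from 200 and 159 expected counts. Micu2 therefore stood at 4.11 ± 0.283 per Mcu and Micu3 at 0.316 ± 0.0179. Micu3 made up 7.17% ± 0.833 of the TPM of both gatekeepers. In counts its share was 7.99% (6.96 to 9.12) in replicate 1 and 6.77% (5.78 to 7.86) in replicate 2, and these intervals overlap.

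Smdt1 (ENSMUSG00000022452.16, chromosome 15 from 82338959 to 82349091, plus strand), which encodes EMRE, was at 89.3 TPM in replicate 1 and 63.9 in replicate 2, or 76.6 ± 18. It was the highest of the uniporter genes, at 10.4 per Mcu in replicate 1 and 8.59 in replicate 2. The leading transcript is short, with 705 bases. The ratio depended on the quantification, since the second table gave 16.0 and 13.3 Smdt1 per Mcu. In both tables replicate 2 was the lower.

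Letm1 (ENSMUSG00000005299.6, chromosome 5 from 33739673 to 33782817, minus strand) was at 56.8 and 45.7 TPM over all its transcripts, or 51.2 ± 7.9. Its full-length coding transcript held less than 50% of that. Letm1-201, with 14 exons and 5272 bases, was at 22.4 and 18.6 TPM and held 40.0% ± 0.873 of the TPM of the gene, although it took 84.9% ± 0.202 of the counts. Letm1-205, annotated as a target of nonsense-mediated decay (NMD) with 642 bases, held 38.2% ± 0.868 of TPM, and the non-coding Letm1-206 with 747 bases held 20.9% ± 0.39. They took 8.52% and 5.55% of the counts. Letm1-205 has only 4 exon bases outside Letm1-201, and 7.4% of its stretches of 100 bases occur in no other Letm1 transcript; for Letm1-206 these values are 0 and 15.1%. Coding transcripts alone, an alternative chosen after seeing the data, gave 20.6 ± 2.6 TPM for Letm1, which put it below Micu2 and lowered its level per Mcu from 6.37 ± 0.333 to 2.63 ± 0.08. In the second table Letm1-205 led with 37.3%, Letm1-201 held 31.7%, and Letm1-206 held 3.17%. The non-coding Letm1-202, with 488 bases, was at 0 in the first table and held 23.0% and 30.3% in the second.

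**Figure D2:**
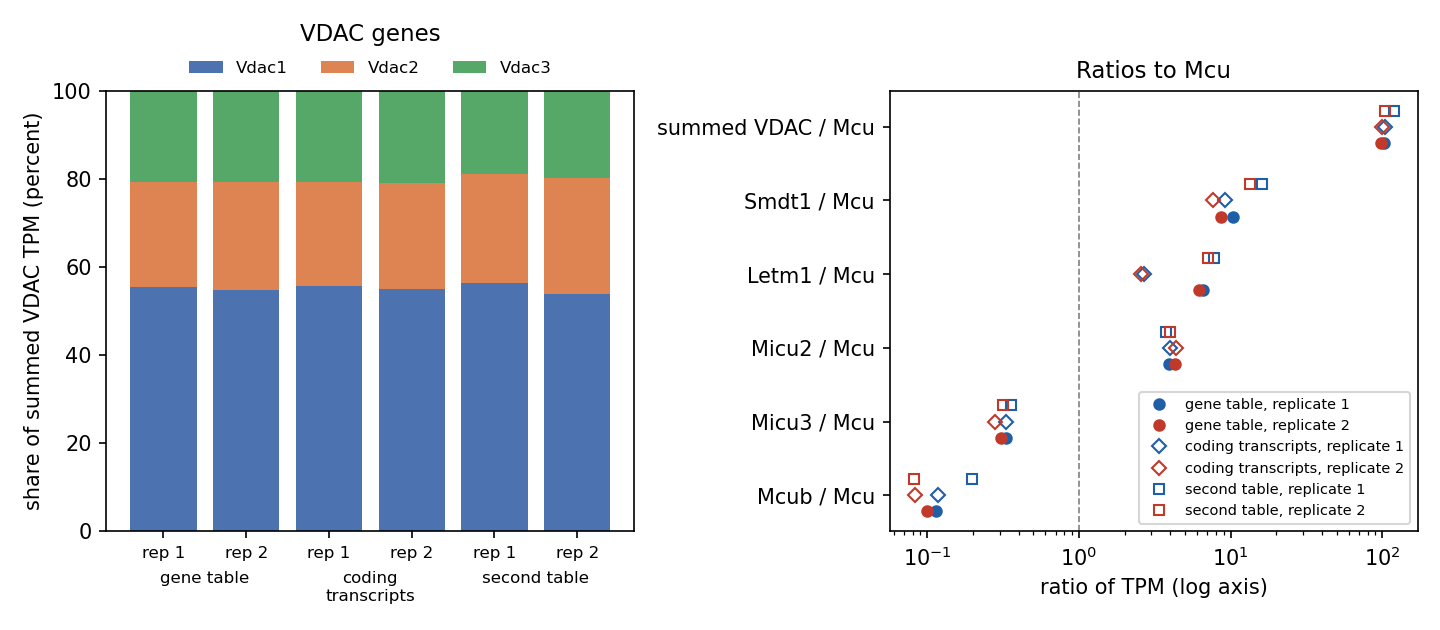
Left, share of Vdac1, Vdac2 and Vdac3 in their summed TPM (percent) in each replicate, from the gene table, from coding transcripts alone and from the second table. Right, TPM of each gene over Mcu (log axis), with blue for replicate 1, red for replicate 2 and the dashed line at equal levels; Vdac1 holds 53.7% to 56.4% in every bar, while Letm1 over Mcu moves between 2.57 and 7.80 with the quantification.

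The annotated transcripts of the other members differed in how much of each gene the leading form held. Over the 9 genes 48 transcripts are annotated, the leading one held over 50% of mean TPM in 8 genes, and the same one led in both tables in 8 genes, Letm1 being the exception each time. Mcu-202, with 8 exons, held 97.0% of Mcu, Micu2-201 held 99.2% of Micu2, and Vdac3-202 held 97.2% of Vdac3. Smdt1-201 held 86.7% ± 0.418, with the NMD form Smdt1-204 at 12.2% ± 1.26. In the second table Smdt1-204 held 1.35% in replicate 1 and 6.38% in replicate 2.

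For Vdac1, Vdac1-202 held 89.6% ± 1.45 and Vdac1-201, whose start is shown above, 10.1% ± 1.49. None of the 100-base stretches of Vdac1-201 is its own, since they all occur in other Vdac1 transcripts, so its level is an estimate from shared reads. Its count was 1327 in replicate 1 with a deposited posterior SD of 117, and the second table gave it 21.9% in replicate 1 and 10.3% in replicate 2. For Vdac2 the level was split between Vdac2-201, with 51.3% ± 2.1, and Vdac2-209, with 44.2% ± 4.35. They are annotated with 885 and 849 coding bases. In the second table Vdac2-207, which the first table put at 3.46% and 0%, held 35.6% and 22.2%, so the split among the Vdac2 forms depended on the quantification while the level of the gene stayed in the same place in the order.

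Micu3 had an incomplete annotated form in the lead. Micu3-203, with 8 exons and an incomplete reading frame of 785 coding bases, held 58.7% ± 2.93, and the full form Micu3-201, with 15 exons and 1569 coding bases, 35.8% ± 1.83. Of their 100-base stretches, 72.4% and 67.0% occur in no other Micu3 transcript. Micu3-203 ends at position 40386308, beyond the end of Micu3-201 at 40384662, and 1646 of its exon bases lie outside all other Micu3 transcripts. Whether reads there come from transcripts with the full coding sequence was not tested, so its lead does not show that a shortened form dominates. Mcub-201 held 90.8% of Mcub in replicate 1 and 41.9% in replicate 2, next to 9.18% and 40.5% for Mcub-204. At 36 and 21 counts this split is not resolved.

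**Figure D3:**
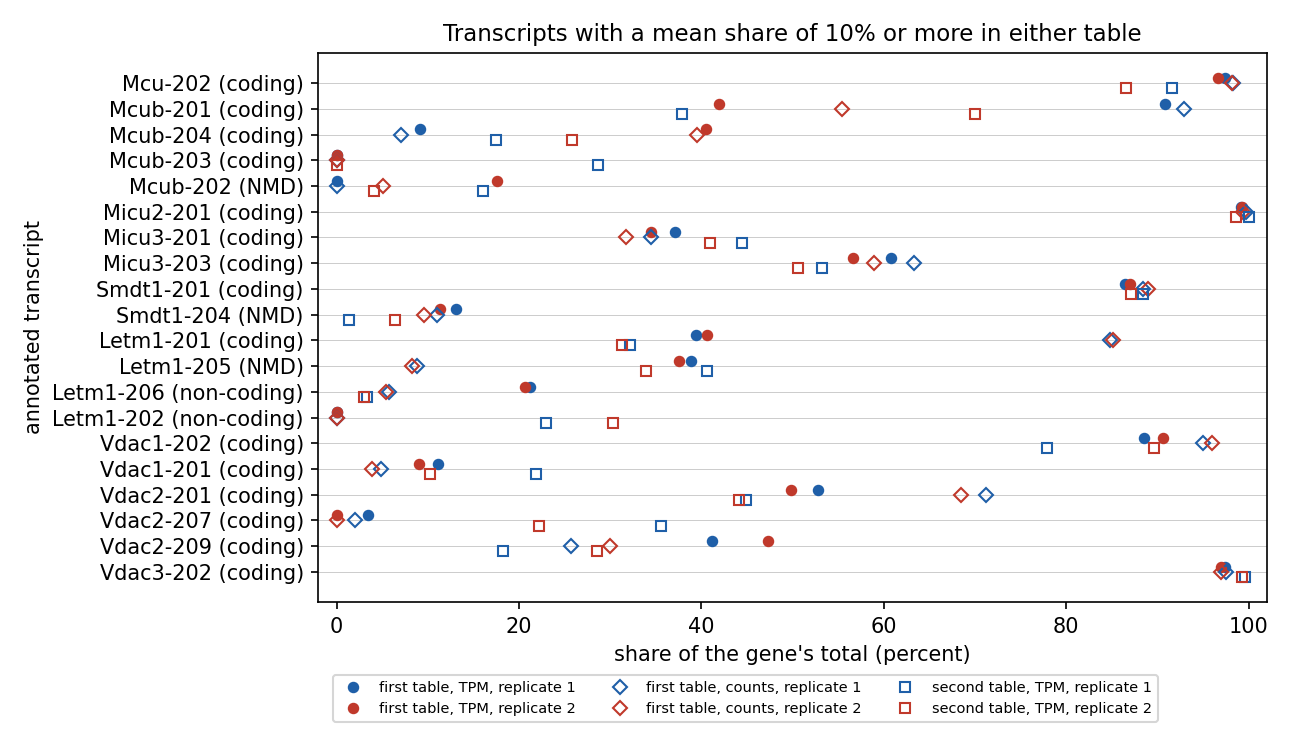
Share of each annotated transcript in its gene (percent), for transcripts with a mean of at least 10% in either table; NMD marks targets of nonsense-mediated decay. Circles are TPM and diamonds counts of the first table, squares TPM of the second table, blue replicate 1 and red replicate 2; Letm1-201 lies near 40% by TPM and 85% by counts, and the Mcub forms lie far apart between libraries.

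Few members shared sequence with other genes, by exact matches of 100 bases between annotated transcripts. The reads themselves were not examined. Stretches of 100 bases shared with another gene made up 9.94% of those of Vdac3, 3.19% of Smdt1 and 0.34% of Vdac2, and 0 of the other 6. The pseudogene Vdac3-ps1 shared the most with Vdac3 and was listed at 9.04 and 8.50 TPM, and in the shared stretches its reads and those of Vdac3 cannot be told apart. The Vdac2 pseudogene Gm7832 was at 5.50 and 3.77 TPM. Smdt1 shares 245 exon bases on the same strand with Pheta2, which was at 0.29 and 0.42 TPM.

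Between the libraries, every member had a lower TPM in replicate 2, at a median of 0.822 of replicate 1. After rescaling to nuclear protein-coding genes 7 of 9 were still lower. With library sizes scaled by TMM, 5 of the 8 members with a mean of at least 1 TPM were lower in replicate 2 by the exact conditional binomial test at an adjusted p of 0.05, namely Smdt1, Letm1, Vdac1, Vdac2 and Vdac3, and none was higher. Among all 12189 genes tested, 15.9% were lower and 10.7% higher by this rule. The 5 genes are those of the highest level among the members. None of the 8 differed by 1.5-fold, which 5.02% of genes tested did. The median log2 ratio of the 9 members was -0.14, beside -0.02 for all genes tested.

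Smdt1 had the lowest ratio of the tested members, with a log2 ratio of replicate 2 over replicate 1 of -0.35 (95% interval -0.46 to -0.24, adjusted p 2.38e-09 by the exact binomial test). Vdac1 was at -0.14 (-0.16 to -0.11, adjusted p 2.22e-24 by the exact binomial test), Vdac2 at -0.14 (-0.18 to -0.09) and Vdac3 at -0.13 (-0.18 to -0.08). Letm1 stood at -0.15 (-0.21 to -0.08). Mcu was at -0.09 (-0.25 to 0.06), Micu2 at 0.06 (-0.02 to 0.15) and Micu3 at -0.19 (-0.50 to 0.11), with adjusted p of 0.448, 0.292 and 0.413 by the exact binomial test. Mcub, under 1 TPM and not tested, was at -0.60 (-1.49 to 0.18). The calls depended on the scaling. Scaled by spike-in counts, 2 members were lower, Smdt1 at -0.26 and Vdac1 at -0.04, and Micu2 was higher at 0.16, while Letm1, Vdac2 and Vdac3 lost their calls at -0.05, -0.04 and -0.03. Over all 12189 genes tested that scaling called 990 lower and 2884 higher, against 1943 and 1302 with TMM and 3473 and 700 with total counts. Cardiac myocyte markers were lower in 5 of 6 by the same test with TMM and higher in 1, with a median log2 ratio of -0.15. At the high levels of these markers, differences as small as -0.02 for Tnnt2 and 0.02 for Myl2 were called. Scaled by spike-in counts, the myocyte markers were lower in 3 and higher in 3. With TMM, atrial myocyte markers were lower in 4 of 4, with summed levels of 1353 TPM in replicate 1 and 812 in replicate 2. White adipocyte markers were also lower in 4 of 4, with 52.2 and 10.8 TPM, and macrophage markers in 3 of 4. Endothelial markers were lower in 1 and higher in 2 of 4, fibroblast markers lower in 2 and higher in 2 of 4, and smooth muscle and pericyte markers higher in 1 of 4. Of 5 skeletal muscle markers, which heart partly shares, Acta1 was higher at 0.62 and Ckm lower at -0.18, and Myh4 and Myh2 were at 0. Their part in the differences of the members was not tested.

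**Figure D4:**
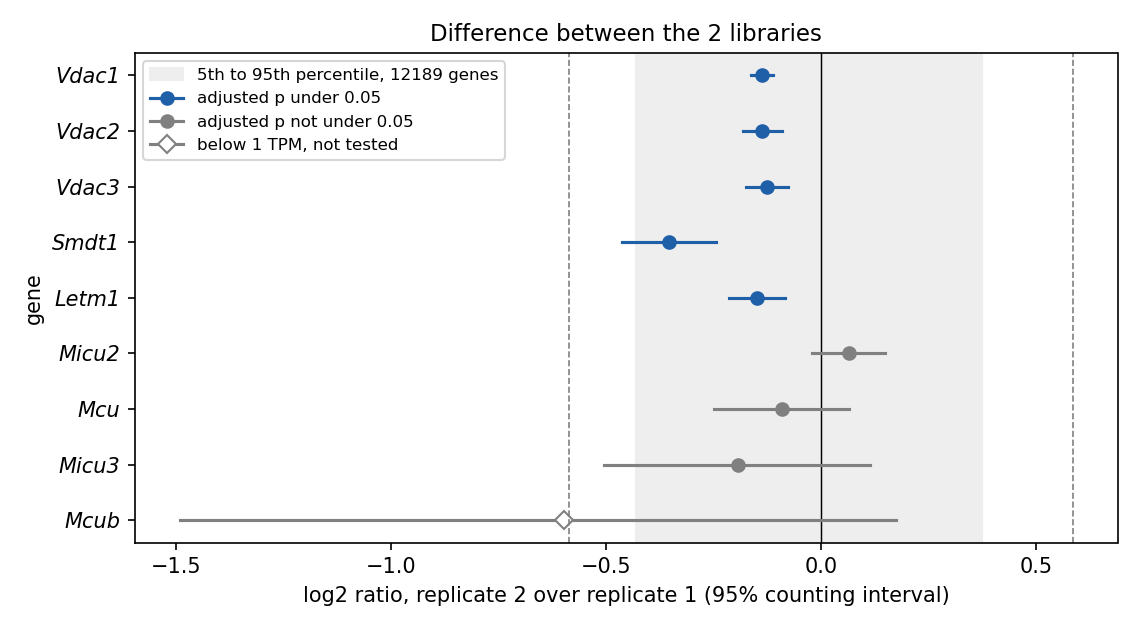
Log2 ratio of replicate 2 over replicate 1 for each of the 9 genes, scaled by TMM, with 95% counting intervals. Blue marks genes with an adjusted p under 0.05 and grey the others, the open diamond is Mcub, below 1 TPM and not tested, the grey band spans the central 90% of 12189 genes and dashed lines mark 1.5-fold; Smdt1 at -0.35 is the lowest tested member.

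The wider pathway was counted in 5 lists of 50 genes, of which 50 reached 1 TPM in both libraries, 20 were lower in replicate 2 by the exact binomial test and 4 higher, beside 15.9% lower and 10.7% higher over all genes tested. Scaled by spike-in counts, 16 were lower and 16 higher, beside 990 lower and 2884 higher among all 12189 genes tested. The counts of each list below therefore hold for TMM scaling unless spike-in scaling is named. Among 9 genes of uniporter regulation and assembly, 3 were lower and none higher, and 2 and 4 with spike-in scaling. Ghitm, a proton and calcium exchanger of the inner membrane, led at 251 ± 17.6 TPM, or 30.6 and 32.0 per Mcu. The prohibitin scaffold genes Phb and Phb2 followed at 159 ± 19.1 and 112 ± 23.8. Mcur1, a uniporter regulator named after its value was seen, was at 19.3 ± 2.55 TPM, or 2.45 and 2.35 per Mcu.

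Genes of other mitochondrial ion exchange were low next to the VDAC genes, with a median of 4.07 TPM over 7 genes. With TMM 2 of them were lower and 2 higher, beside 15.9% and 10.7% of all genes tested. With spike-in scaling 2 were lower and 3 higher, beside 990 and 2884 of all 12189 genes tested. Slc8b1, the mitochondrial sodium and calcium exchanger that carries calcium out of the matrix, was at 3.82 and 4.31 TPM, or 0.444 and 0.579 per Mcu; it was named after its value was seen. The uncoupling proteins Ucp2 and Ucp3 were at 89.98 ± 18 and 9.90 ± 5.06 TPM, and the calcium-binding Efhd2 at 7.48 ± 1.82. Ucp3 was at 6.32 TPM in replicate 1 and 13.5 in replicate 2, with a log2 ratio of 1.24 (adjusted p 8.6e-52 by the exact binomial test).

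Of 12 genes whose products work next to VDAC, 7 were lower and none higher, with a median log2 ratio of -0.23, beside 15.9% and 10.7% of all genes tested. With spike-in scaling 6 were lower and 2 higher, with a median of -0.13. Over all 12189 genes tested, that scaling called 990 lower and 2884 higher, with a median of 0.075, beside a median of -0.02 with TMM. The ADP/ATP carrier Slc25a4 was at 1869 ± 424 TPM, the phosphate carrier Slc25a3 at 1054 ± 174 and the mitochondrial creatine kinase Ckmt2 at 1031 ± 184, each above Vdac1. The survival factor Bcl2l1 was the only gene of the list apart by 1.5-fold, at 31.3 TPM in replicate 1 and 15.0 in replicate 2. In the list of 11 genes of reticulum release and contact sites, 2 were lower and 1 higher, and 1 and 3 with spike-in scaling. Ryr2, the calcium release channel of the sarcoplasmic reticulum, was at 319 ± 54.7 TPM, the tether Mfn2 at 248 ± 3.54, and Hspa9, a chaperone that links VDAC to reticulum calcium channels, at 246 ± 30.4.

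Calcium-regulated carriers and enzymes of mitochondria were lower in 6 of 11 genes and higher in 1 with TMM, beside 15.9% and 10.7% of all genes tested. With spike-in scaling 5 were lower and 4 higher, beside 990 and 2884 of all 12189 genes tested. Ogdh, the oxoglutarate dehydrogenase that matrix calcium stimulates, was at 716 ± 34.4 TPM, or 86.1 and 93.0 per Mcu. The isocitrate dehydrogenase subunits Idh3b and Idh3g were at 309 ± 51.7 and 249 ± 13.3. The calcium-binding carrier Slc25a25 was at 3.38 and 2.61 TPM, with a log2 ratio of -0.64 by counts.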

How the data were processed

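Total RNA from 2 heart libraries had been quantified on mm10 with GENCODE M21, per the deposited file list; the names and versions of aligners and quantifiers are not given in the sources used here. The authors' gene table and the first transcript table give expected counts and TPM as deposited. Posterior SDs of counts and posterior bounds of TPM are score values as deposited by the authors, and the level of the bounds is not stated. The second transcript table gives estimated counts and TPM as deposited. Effective length was 99 bases under transcript length in the first table for long transcripts, and 309 and 323 in the second in replicates 1 and 2.

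Members were matched by exact symbol and joined by gene identifier. The members and lists were chosen with earlier results of these data known. From each list the 3 genes of highest mean TPM, any under 1 TPM and any at least 1.5-fold apart are named, and of each member the leading transcript and others at 10% or more. Library sizes summed 55536 annotated genes. The 96 spike-ins and the entries named only by number stayed out, the latter holding 1.94 counts in replicate 1 and 1 in replicate 2. Expected counts were rounded and scaled by TMM in edgeR 4.0.16 (R 4.3.3), and log2 ratios carry a prior count of 2. An exact binomial test of the 2 counts given their sum, two-sided and Benjamini-Hochberg adjusted, covered the 12189 genes whose mean TPM reached 1. With 1 library a side a quasi-likelihood fit could not be made. The test compares these libraries, not conditions. It was also run on simulated counts that held counting error only, which says nothing about spread between libraries beyond counting. Intervals are 95% Clopper-Pearson and cover counting error only. Alternatives changed the scaling, prior count, TPM filter, unit and table.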

Additional observations from a re-analysis of the deposited data

How the results depend on the processing

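No paired analysis was possible because both libraries belong to 1 group, and the difference between the libraries has no leave-one-out value. With expected counts in place of TPM, which are not per length, the mean ratios were 0.0416 for Mcub over Mcu, 2.05 for Smdt1, 3.34 for Micu2, 0.265 for Micu3, 5.67 for Letm1 and 58.7 for summed VDAC, Mcub made up 3.99% of Mcu plus Mcub, and Vdac1, Vdac2 and Vdac3 made up 62.2%, 20.6% and 17.2%. In the second table Mcub over Mcu was 0.140, Smdt1 14.7, Micu3 0.335, Letm1 7.45 and summed VDAC 111, Mcub made up 12.02% of its pair, and Vdac2 and Vdac3 made up 25.6% and 19.4%. Coding transcripts alone, chosen after seeing the data, moved 1 of 11 ratios by more than the SD, Letm1 over Mcu, to 2.63. The cause of these shifts was not tested. Leaving out 1 of 2 libraries cannot move a mean by more than the SD and says nothing about stability. Total counts called 3473 genes lower and 700 higher in replicate 2, and spike-in counts 990 and 2884, with 2 members lower and 1 higher. Library scaling alone changes between these. At least 1.5-fold differences numbered 5732 genes without the TPM filter and 215 at a minimum of 5 TPM. Mcub was the 1 member at least 1.5-fold apart without the filter and in the second table. Depth limits Mcub and Micu3, the members with the fewest counts.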
